A study of Mus musculus with 138 samples.

Results

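The genes described here encode proteins of the spliceosome, the ribonucleoprotein machine that removes introns from pre-mRNA, and the SR proteins that guide it. They were taken from the gene names of both count tables, as all names that begin with Snrp, Sf3a, Sf3b, Prpf or U2af, or with Lsm or Srsf followed by a digit, without pseudogene names, Lsm14a and Lsm14b. The rule found 57 of the 25900 genes in the tables: 8 of the Sm ring, 10 LSm genes, 5 of the U1 particle and its partners, 13 of the U2 particle and U2AF, 10 of the U4/U6.U5 tri-snRNP and the later steps, and 11 SR proteins. The rule reads names alone.

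Each library held polyadenylated RNA from 1 plate well with mouse material of the 2-cell stage, made with the RNA part of scNMT-seq. In the maternal deletion experiment, libraries labelled Smarca5 +/- (mat KO), called maternal deletion here, were compared with libraries labelled Smarca5 +/+, called wild type. SMARCA5 is the ATPase of the ISWI chromatin remodellers. The design text gives the deletion embryos as offspring of females without maternal Smarca5 and wild-type males. Since matKO females stand in the titles of both groups, the titles leave the mothers of the wild-type libraries unclear, and maternal loss and embryo genotype cannot be told apart. The driver of the deletion in the oocyte is not given in the sources used here. In TrimAway, an antibody brings its target protein to the ubiquitin ligase TRIM21 for degradation. Wild-type zygotes received an anti-SMARCA5 antibody, received IgG or were left uninjected, and libraries were made at least 24 hours after injection. A replicate number stands for a pool of embryos, which the design text calls a technical replicate. Libraries with at least 100000 counts were used: 28 maternal deletion, 22 wild type, 31 anti-SMARCA5, 20 IgG and 15 uninjected.

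Kept libraries held 109007 to 12004992 counts, with a median of 1469197. The 3 wells without an embryo held 453 to 1875 counts. Smarca5 RNA had a median of 333 CPM (counts scaled by library size) in wild type (range 148 to 793) and 89.7 CPM after maternal deletion (3.03 to 314). In replicate 2, 1 deletion library and 2 wild-type libraries are called at odds with their labels here. Their Smarca5 (293, 148 and 159 CPM) lies where the groups overlap. For the oocyte gene Gdf9, the deletion library had 20.6 CPM, and the lowest other deletion library had 1051 CPM. The 2 wild-type libraries had 605 and 267 CPM, between the wild-type median of 48.1 CPM and the other deletion libraries. Whether any label is wrong was not tested. Trim21 RNA was at or under 3 counts in all 10 IgG libraries of replicate 1. It had a median of 296 CPM in IgG libraries of replicate 3, so the injected controls of the replicates differ. In anti-SMARCA5 libraries its median was 1378, 1018 and 1614 CPM in replicates 1, 2 and 3. Antibody and Trim21 can therefore not be told apart in replicate 1, and Trim21 RNA is not matched in replicate 3. All 6 IgG libraries of replicate 2 had too few counts. Libraries are not stated to come from separate matings, so p-values measure the spread between these wells.

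The spliceosome is rebuilt on each intron. The U1 particle marks the 5′ splice site, U2AF and the U2 particle mark the 3′ splice site and the branch point, and the tri-snRNP of U4, U6 and U5 then joins and is rearranged into the catalytic form. A ring of Sm proteins wraps the snRNAs of U1, U2, U4 and U5, and a ring of LSm proteins wraps U6. SR proteins bind exons and recruit these particles. In the mouse, major activation of the zygotic genome takes place in the 2-cell embryo, which also inherits splicing factors and their mRNAs from the egg.

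The genes together took a median of 0.787% of the counts of wild-type libraries (range 0.489 to 1.04%) and 0.349% after maternal deletion (0.217 to 0.890%). Of the 28 deletion libraries, 24 lay below the lowest wild-type library, and the highest one, at 0.890%, was the deletion library called at odds with its label. The deletion median was 0.383% in replicate 1, against 0.643% in wild type, and 0.327% in replicate 2, against 0.877%. In the TrimAway experiment the median was 0.695% in uninjected (0.441 to 0.921%), 0.628% in IgG (0.308 to 0.809%) and 0.494% in anti-SMARCA5 libraries (0.166 to 0.780%). Of the 31 anti-SMARCA5 libraries, 26 lay below the IgG median. Such counts are relative to the other RNA of the library, and the amount of this RNA per cell was not measured.

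**Figure D1:**
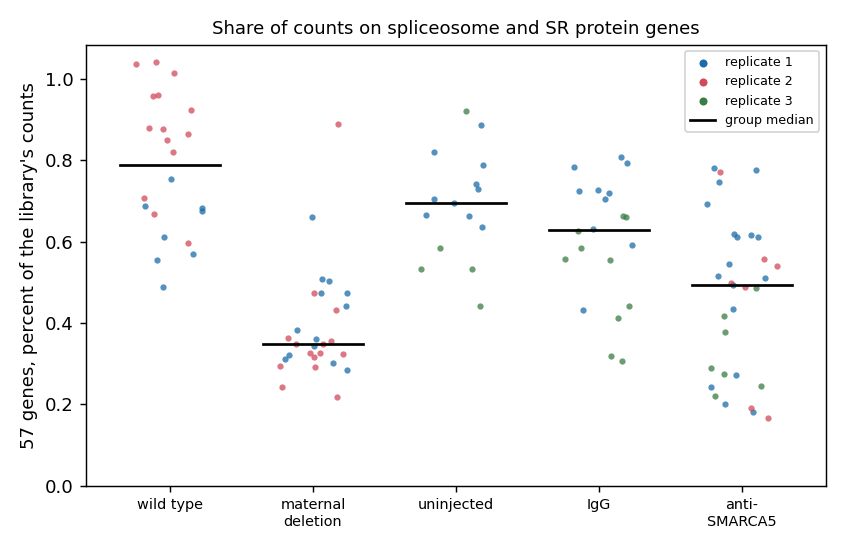
Percent of each library's counts that fell on the 57 genes, by group, with 1 point per kept library coloured by replicate number and a black line at the group median. All deletion libraries but 2 lie between 0.217 and 0.508%, the next lies at 0.661%, and the deletion point at 0.890% is the library at odds with its label.

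In undisturbed embryos the order of levels was set by a few small Sm genes. Per kilobase of transcript, the mean in the 15 uninjected libraries was 973 CPM per kilobase (SD 429) for Snrpe and 385 (SD 105) for Snrpg, which encode the E and G subunits of the Sm ring. Snrpd1, for the D1 subunit, followed at 206 CPM per kilobase (SD 83.3), then Snrpc of the U1 particle at 176 (SD 55.2) and Sf3b5 of the SF3b complex at 170 (SD 49.8). Only 4 of the 56 neighbours in this order were farther apart than either gene's SD: Snrpe from Snrpg, Snrpg from Snrpd1, Sf3b3 from Lsm11, and Lsm11 from Prpf40b. Snrpe and Snrpg also ranked first and second per kilobase in each of the other groups. The most abundant gene of each class per kilobase over all groups was Snrpe, Lsm2, Snrpc, Sf3b5, Prpf38a and, among SR proteins, Srsf5, which had 121 CPM per kilobase (SD 34.3) in uninjected libraries. These 6 also led their classes in wild type, uninjected and IgG libraries. After deletion the highest mean per kilobase was that of U2af1l4 (146, SD 72.6) in the U2 class, Lsm7 (104, SD 103) among LSm genes and Srsf7 (69.9, SD 97.5) among SR proteins, and in anti-SMARCA5 libraries Srsf7 (109, SD 67.8) stood above Srsf5 (68.6, SD 46.1).

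**Figure D2:**
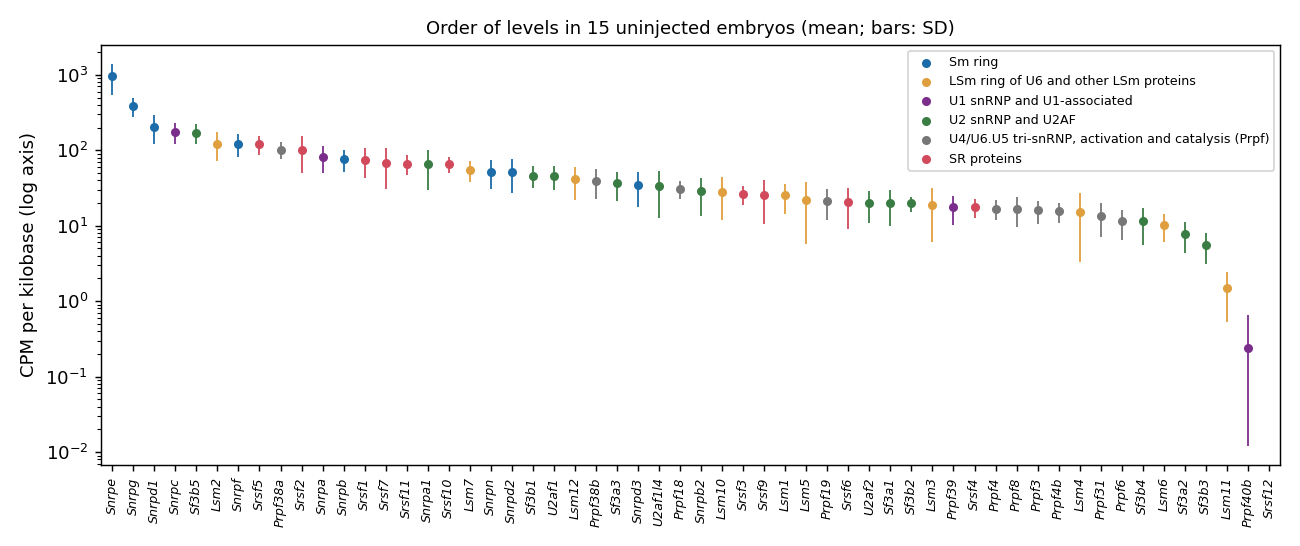
Mean level per kilobase of transcript (log axis) of 56 genes in 15 uninjected libraries, in falling order and coloured by class, with SD bars whose lower end is held above 0. Sm genes hold the top 3 places, most neighbours overlap within their SD, and Srsf12, at 0, has no point.

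Variation between uninjected embryos was modest for the well-measured genes. Among the 36 genes with a mean of at least 50 CPM, the coefficient of variation had a median of 40.8%. It was lowest for Sf3b2 (21.9%), a subunit of SF3b, for Srsf10 (23.9%), an SR protein that can repress splicing, and for Prpf38a (25.5%), a factor of spliceosome activation. It was highest for Srsf6 (55.6%), Srsf7 (54.6%) and Snrpa1 (54.6%).

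After maternal deletion, genes of this group fell far more often than they rose. Of the 54 genes tested, 27 were called lower and 3 higher (edgeR's quasi-likelihood test, Benjamini-Hochberg adjusted p under 0.05), where 26.4% of all 8518 genes tested were called lower, 30.3% higher and 56.6% in either direction. The median log2 fold change was -1.05 over these genes and 0.18 over all genes tested, and 40 of the 54 values were below 0. In each of the 27 genes called lower, 23 to 28 of the 28 deletion libraries lay under the wild-type median, but in no gene were the groups free of overlap. Markers of other stages moved with this result. The summed level of 18 oocyte and maternal transcripts was 5568 to 34218 CPM in deletion libraries (median 15277), against 3403 to 16691 CPM in wild type (median 5378), with Gdf9 at a median of 4515 against 48.1 CPM, Bmp15 at 1861 against 315 CPM, and Dppa3 the other way, at 688 against 2958 CPM. The summed level of 19 genes of the 2-cell stage was 76.4 to 3441 CPM (median 349) against 907 to 2518 CPM (median 1573). The 15 markers of cumulus and granulosa cells summed to a median of 59.8 against 68.6 CPM, with a range of 0 to 125 against 0 to 170 CPM. Within this list Amhr2 had a median of 0 after deletion against 60.7 CPM in wild type. Kitl (13.7 against 4.19 CPM), Star (4.56 against 0) and Cyp19a1 (1.74 against 0) went the other way. The rest, among them Fshr, Lhcgr and Foxl2, had a median of 0 in both groups. The part of these markers, and of the depth that differed between the groups (median 1618486 counts after deletion, 545264 in wild type), in the result was not tested.

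**Figure D3:**
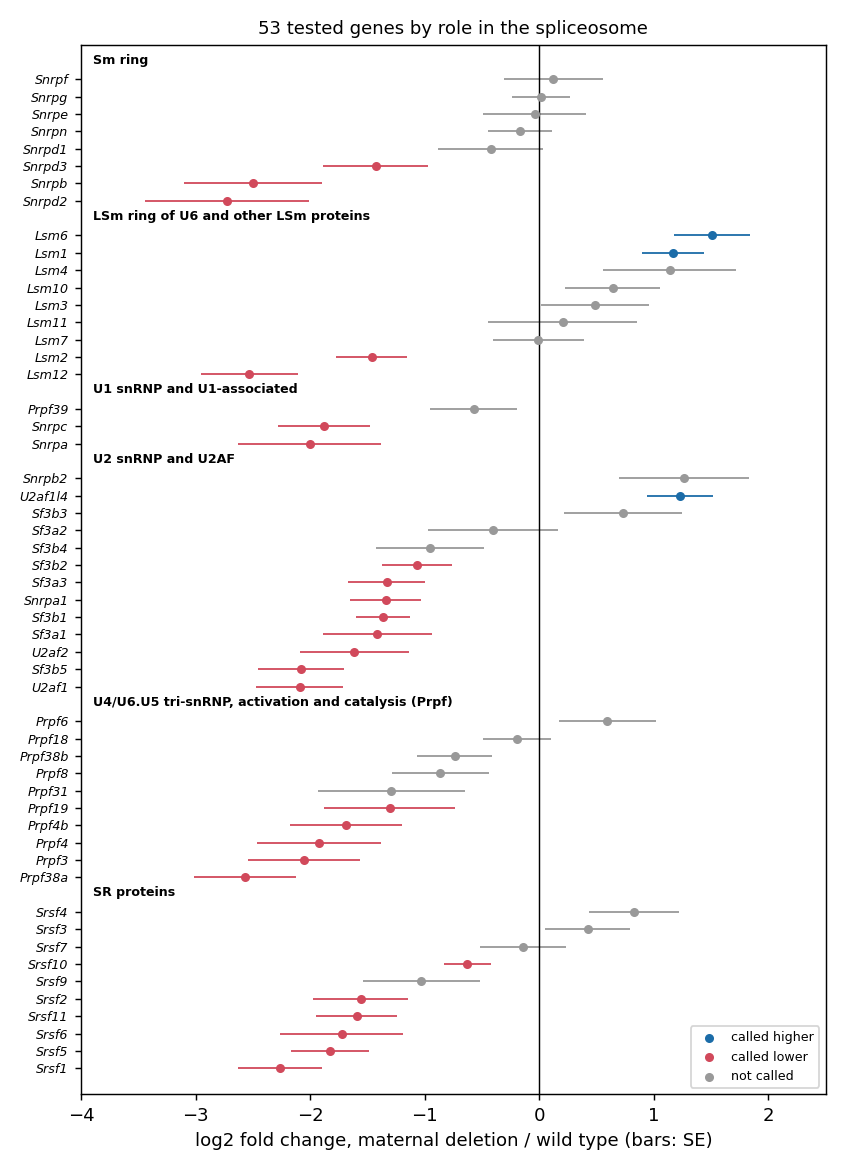
Log2 fold change of maternal deletion against wild type for 53 of the tested genes, grouped by class, with bars of 1 standard error and colour by call. Most points lie left of 0, and the exceptions called higher are Lsm6 at 1.51, U2af1l4 at 1.23 and Lsm1 at 1.17.

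The Sm ring was split. Snrpd2 (chromosome 7, 19149722 to 19152735), for the D2 subunit, had 0 to 266 CPM in wild type with a median of 73.8. After deletion it had a median of 0 and a highest value of 234 CPM. It was at 0 counts in 15 of 28 deletion libraries and in 1 of 22 wild-type libraries, and it fell by 2.73 on the log2 scale (standard error, SE, 0.72, edgeR adjusted p = 0.00123). Snrpb (chromosome 2, 130171414 to 130179403), for the B subunit, had a median of 64.3 CPM in wild type (15.9 to 234) and 6.45 CPM after deletion (0 to 84.3). It fell by 2.5 on the log2 scale (SE 0.60, edgeR adjusted p = 0.000466), and 23 of 28 deletion libraries were under the lowest wild-type library. Snrpd3, for the D3 subunit that pairs with B, fell by 1.43 (SE 0.46, edgeR adjusted p = 0.00698), from a median of 148 to 21.8 CPM.

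The other 5 Sm genes were not called. Snrpg had a median of 237 CPM in wild type (106 to 1428) and 368 CPM after deletion (79.2 to 700), with a log2 value of 0.02 (SE 0.26, edgeR adjusted p = 0.963). Snrpe, the most abundant gene of the whole group, had 381 CPM in wild type (152 to 2709) and 168 CPM after deletion (29.7 to 3014), with a log2 value of -0.04 (SE 0.45, edgeR adjusted p = 0.944). Its level differed between the replicates: wild-type medians were 714 CPM in replicate 1 and 302 CPM in replicate 2, and deletion medians were 964 and 91.7 CPM. With the replicate number as a block, Snrpe was called lower at -0.78 (edgeR adjusted p = 0.045) and Snrpd1 at -1.19 (edgeR adjusted p = 0.022), with adjusted p ranges over the alternatives of 0.0154 to 0.998 and 0.00976 to 0.749. Snrpf stood at 0.12 (SE 0.43), and Snrpn, an imprinted relative of the B subunit whose identifier in the tables spans several overlapping transcripts, at -0.17 (SE 0.28).

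The LSm genes were the class least like the rest, with 2 called lower, 2 higher and a median log2 value of 0.49 over the 9 tested. Lsm12 (chromosome 11, 102162497 to 102185296), an LSm-domain protein outside the rings, had a median of 79.4 CPM in wild type (19.9 to 209) and 8.80 CPM after deletion (0 to 107). It fell by 2.53 (SE 0.43, edgeR adjusted p = 2.81e-06), and 27 of 28 deletion libraries lay under the wild-type median. Lsm6 (chromosome 8, 78804865 to 78821140), a subunit of both the U6 ring and the cytoplasmic ring that acts in mRNA decay, had a median of 35 CPM in wild type (0 to 120) and 91.3 CPM after deletion (20 to 247). It rose by 1.51 (SE 0.33, edgeR adjusted p = 0.000141). Lsm1 (chromosome 8, 25785591 to 25803975), which belongs to the decay ring and not to the U6 ring, had a median of 68.1 CPM in wild type (3.13 to 284) and 183 CPM after deletion (72.1 to 352). It rose by 1.17 (SE 0.27, edgeR adjusted p = 0.000276), and all 28 deletion libraries were above the wild-type median. Lsm4 was called higher only with the replicate block (1.82, edgeR adjusted p = 0.00984, range over the alternatives 0.00984 to 0.268), against 1.14 (adjusted p = 0.0877) without it.

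Lsm2 (chromosome 17, 34981862 to 34985891) of the same rings had a median of 137 CPM in wild type (19.9 to 374) and 50.6 CPM after deletion (17.4 to 253). It was called lower at -1.46 (SE 0.31, edgeR adjusted p = 0.000106), but within the replicates it was called in replicate 2 alone. Wild-type medians were 54.4 CPM in replicate 1 and 270 CPM in replicate 2, while deletion medians were 46.5 and 62.3 CPM. The log2 fold change was 0.24 (adjusted p = 0.652) within replicate 1 and -1.80 (adjusted p = 0.00019) within replicate 2, both from edgeR, and 3.68e-06 to 0.652 was the range of adjusted p over the alternatives. Lsm2 was the single gene of the 54 whose deletion effect differed between the replicates in an interaction test (difference -2.14, SE 0.55, edgeR adjusted p = 0.0444, range over the alternatives 0.000526 to 0.533), where 0.763% of all genes were called. Without the 3 libraries called at odds with their labels, 4 genes were called in that test, all with a lower value in replicate 2: Lsm2 (-2.60), Snrpa1 (-2.32), Snrpd1 (-2.86) and Lsm4 (-3.83). With only libraries of at least 500000 counts, none was. Replicates 1 and 2 of this experiment were sequenced on different lanes, so pool and lane cannot be told apart.

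The U1 genes that passed the test all fell. Snrpa (chromosome 7, 27187005 to 27196271), which binds a stem-loop of the U1 snRNA, had a median of 115 CPM in wild type (21.7 to 293) and 4.38 CPM after deletion (0 to 313), and it was called lower at -2.0 (SE 0.62, edgeR adjusted p = 0.00569). Its one deletion library above the wild-type range is at 313 CPM, and the change was -3.87 in replicate 1 and -1.57 (edgeR adjusted p = 0.0888, the highest over the alternatives, with 2.57e-05 the lowest) in replicate 2. Snrpc (chromosome 17, 27839974 to 27851968), whose protein contacts the 5′ splice site, had a median of 148 CPM in wild type (74.0 to 291) and 32.2 CPM after deletion (0 to 176). It fell by 1.88 (SE 0.40, edgeR adjusted p = 0.000109), and 22 of 28 deletion libraries were under the lowest wild-type library. Prpf39, a U1-associated protein, stood at -0.57 (SE 0.38).

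Among 13 genes of U2 and U2AF, 8 were called lower and 1 higher. U2af1 (chromosome 17, 31647082 to 31658754), which reads the AG of the 3′ splice site, had a median of 107 CPM in wild type (30.3 to 206) and 18.1 CPM after deletion (0 to 135). It fell by 2.09 (SE 0.38, edgeR adjusted p = 1.1e-05). Its paralogue U2af1l4 (chromosome 7, 30563301 to 30567960) went the other way, with a median of 38.5 CPM in wild type (7.68 to 174) and 110 CPM after deletion (42.2 to 274). It rose by 1.23 (SE 0.29, edgeR adjusted p = 0.000317), and all 28 deletion libraries were above the wild-type median. U2af1l4 overlaps exons of Psenen on the other strand, so reads of the pair may not be separable where counting ignored strand. The same limit holds for Srsf1, Srsf2, Snrpd3, Snrpa, Prpf4b and Sf3b2, which were called lower, and for some genes not called. U2af2, which binds the polypyrimidine tract as the partner of U2af1, fell by 1.62 (SE 0.48).

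The branch-point complexes SF3a and SF3b fell at several subunits. Sf3b5 (chromosome 10, 13008450 to 13009182) had a median of 107 CPM in wild type (6.63 to 528) and 23.5 CPM after deletion (0 to 97.1), and it fell by 2.08 (SE 0.37, edgeR adjusted p = 7.83e-06). Sf3b1, the subunit that holds the branch-point helix, fell by 1.36 (SE 0.24), from a median of 373 to 123 CPM. Sf3a1, Sf3a3 and Sf3b2 were called lower as well, at -1.41, -1.33 and -1.07, while Sf3b4, Sf3a2 and Sf3b3 were not called and stood at -0.95, -0.40 and 0.73. Of the U2-specific proteins, Snrpa1 was called lower (-1.34, SE 0.31), but its value was 0.07 (edgeR adjusted p = 0.888) within replicate 1 and -1.64 (adjusted p = 0.00155) within replicate 2, with a range of adjusted p over the alternatives of 7.7e-06 to 0.888. Snrpb2 was not called, at 1.26 (SE 0.57, edgeR adjusted p = 0.0527), with 1.61 within replicate 1 and -0.28 within replicate 2.

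Of 10 genes of the tri-snRNP and later steps, 5 were called lower and none higher. Prpf38a (chromosome 4, 108563172 to 108579336) had a median of 256 CPM in wild type (79.1 to 538) and 25.5 CPM after deletion (0 to 427). It fell by 2.57 (SE 0.45, edgeR adjusted p = 4.77e-06), with 26 of 28 deletion libraries under the lowest wild-type library. Prpf3 (chromosome 3, 95830124 to 95855885), of the U4/U6 particle, had a median of 37.0 CPM in wild type (15.4 to 85.4) and 4.66 CPM after deletion (0 to 54), and it fell by 2.05 (SE 0.49, edgeR adjusted p = 0.000441). Its partner Prpf4, the kinase Prpf4b and the ubiquitin ligase Prpf19 were called lower at -1.92, -1.69 and -1.31. Prpf8, the scaffold of the catalytic core, stood at -0.86 (SE 0.42, edgeR adjusted p = 0.0767), and Prpf38b stood at -0.74 (SE 0.33, edgeR adjusted p = 0.0501, range over the alternatives 0.00442 to 0.446), next to the threshold, and was called lower in several alternatives, such as the replicate block (-0.95) and replicate 2 alone (-1.22).

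Of 10 SR proteins tested, 6 were called lower. Srsf1 (chromosome 11, 88047373 to 88053755), the founding member of the family, had a median of 200 CPM in wild type (38.5 to 1345) and 73.0 CPM after deletion (1.66 to 214). It fell by 2.26 (SE 0.37, edgeR adjusted p = 1.52e-06), and 27 of 28 deletion libraries were under the wild-type median. Srsf5 (chromosome 12, 80945504 to 80950507) had a median of 188 CPM in wild type (73.0 to 364) and 40.2 CPM after deletion (0 to 295). It fell by 1.83 (SE 0.34, edgeR adjusted p = 1.37e-05), with 22 of 28 deletion libraries under the lowest wild-type library. Srsf6, Srsf11, Srsf2 and Srsf10 were called lower at -1.73, -1.59, -1.56 and -0.63. Srsf3, Srsf4, Srsf7 and Srsf9 stood at 0.42, 0.83, -0.14 and -1.03 and were not called. Srsf7 was at -1.47 (edgeR adjusted p = 0.00695) within replicate 1 and 0.47 (adjusted p = 0.379) within replicate 2. Its adjusted p over the alternatives lay between 0.00695 and 0.779.

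**Figure D4:**
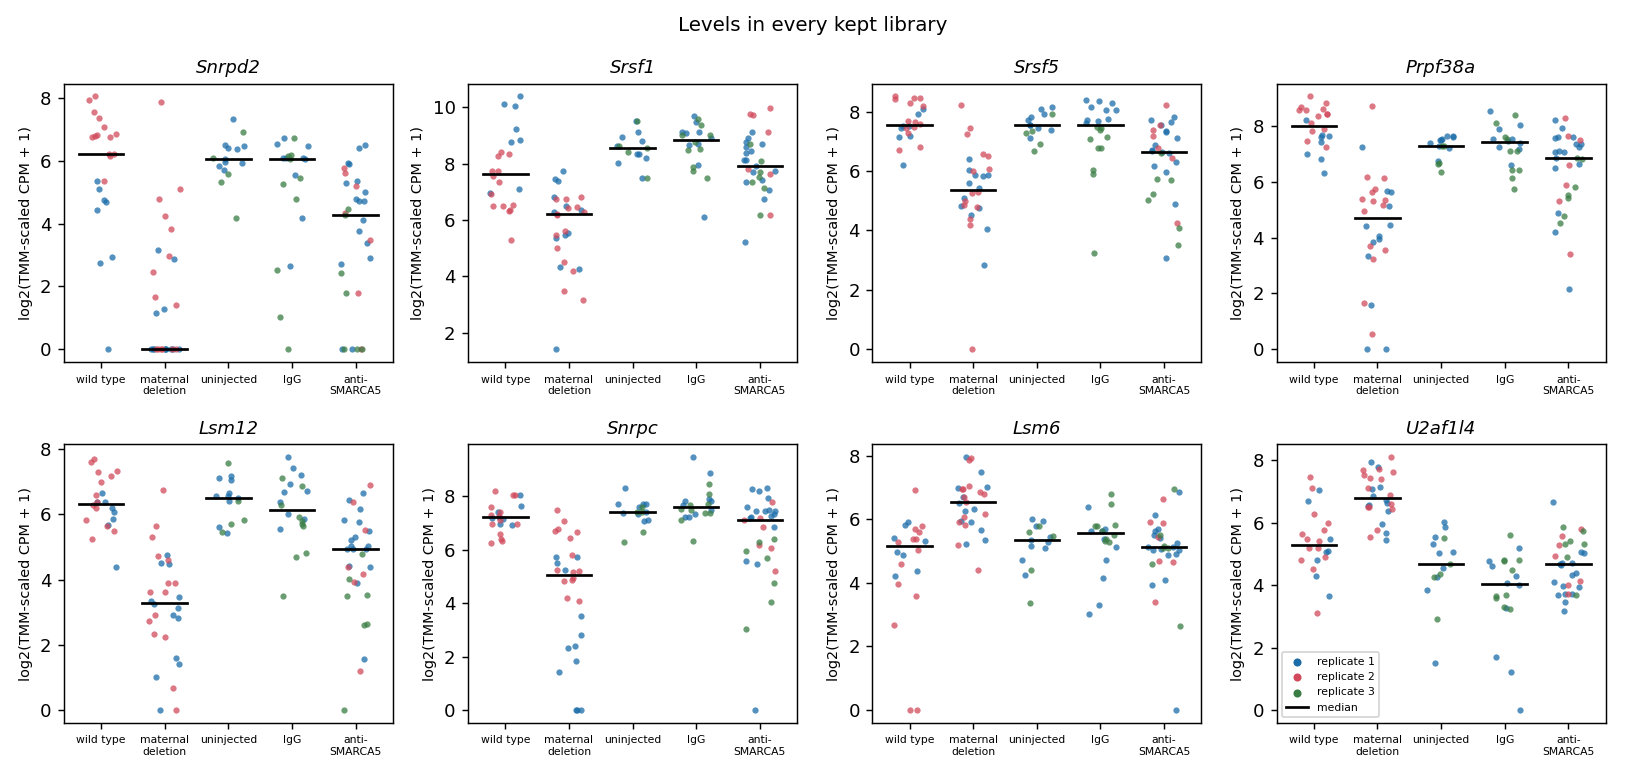
Level of 8 genes in every kept library, as log2(TMM-scaled CPM + 1), with points coloured by replicate number and a line at the group median. In the maternal deletion experiment 6 of the genes are lower after deletion and Lsm6 and U2af1l4 higher. The 31 anti-SMARCA5 libraries have lower medians than the IgG libraries for every gene shown except U2af1l4.

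Both pools of the deletion experiment gave the direction on their own. Within replicate 1, 17 of 46 genes were called lower and 4 higher, against 20.2% and 23.6% of all genes tested there. Within replicate 2, 24 of 55 were called lower and 3 higher, against 15.7% and 24.1%. Of the 30 genes called in the fit of both pools, 18 were called in every alternative fit that tested them, among them Lsm12, Lsm6, Lsm1, U2af1l4, Prpf38a, Srsf1, Srsf5, Snrpc and U2af1. The call was lost in at least 1 alternative for Lsm2, Snrpa, Snrpa1, Snrpd3, Sf3a1, Sf3b2, Prpf4, Prpf4b, Prpf19, Srsf2, Srsf6 and Srsf10. Within replicate 1 the value of 2 of these turned above 0, Lsm2 and Snrpa1. Without the 3 libraries called at odds with their labels, 28 genes were called lower and 4 higher.

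Genes that move together can be set beside their promoters. RefSeq windows (GRCm38.p6) matched 47 of the 57 genes, 22 of them called lower and 2 called higher after deletion. The 250 bases before the start were searched on both strands for 6 short motifs. The GC box GGGCGG was found before 68.2% of the genes called lower, 60.4% of all tested genes with a window and 32.9% of all 27025 genes with one. CCAAT was found before 36.4%, 38.1% and 34.5%, TATAAA before 9.1%, 5.8% and 13.0%, and CACGTG before 4.5%, 9.0% and 6.0%. The ETS-type word CCGGAAGT was found before 4 of the 22 genes called lower (18.2%), against 6.9% and 2.9%, and before 9.5% of the 1631 tested genes called lower. TCTCGCGA was found before 0.0%, 2.8% and 0.9%. The 100 bases before the start of 4 genes that fell and of Lsm6, which rose, show how these words are spread, with every match to the 6 motifs in capitals.
Srsf5: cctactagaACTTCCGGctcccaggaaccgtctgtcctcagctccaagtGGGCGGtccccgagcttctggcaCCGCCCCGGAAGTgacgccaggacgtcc
Prpf38a: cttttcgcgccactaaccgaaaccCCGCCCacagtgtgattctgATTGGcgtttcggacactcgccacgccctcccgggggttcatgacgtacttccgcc
Srsf1: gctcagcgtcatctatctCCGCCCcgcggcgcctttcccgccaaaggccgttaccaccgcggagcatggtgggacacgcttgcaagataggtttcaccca
Snrpa: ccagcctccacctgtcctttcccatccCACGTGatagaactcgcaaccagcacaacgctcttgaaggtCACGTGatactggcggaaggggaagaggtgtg
Lsm6: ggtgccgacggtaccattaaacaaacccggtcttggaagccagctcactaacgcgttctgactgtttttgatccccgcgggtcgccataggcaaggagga

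They lie at chr12:80945399-80945498 (plus strand), chr4:108579337-108579436 (minus), chr11:88047273-88047372 (plus), chr7:27196272-27196371 (minus) and chr8:78821153-78821252 (minus), in that order. In Srsf5 a GC box and an ETS-type word overlap near the start, and in Snrpa CACGTG stands at a pair of places. None of the 6 motifs lies in the stretch of Lsm6, nor in the full windows of Lsm6 and U2af1l4, the genes called higher that have one. The full windows of Snrpc, Prpf3 and Prpf4, which were called lower, held none of them either. The lack of these words thus does not mark the genes that rose.

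Genes that work beside this group were read from lists. Of 17 tested genes of snRNP assembly and snRNA export, 12 were called lower and 1 higher after deletion, with a median log2 value of -1.62. Tgs1, which trimethylates the cap of snRNAs, had a median of 160 CPM in wild type (46.9 to 606) and 1.27 CPM after deletion (0 to 249), and it fell by 3.41 (SE 0.64, edgeR adjusted p = 1.77e-05). Gemin6, of the SMN complex that loads the Sm ring, had a median of 33.5 CPM in wild type (0 to 62.8) and 71.9 CPM after deletion (8.50 to 263), and it rose by 1.29 (SE 0.37). Of 15 genes for SR-related proteins and SR kinases, 9 were called lower and 1 higher. Tnpo3, the import receptor of SR proteins, had a median of 340 CPM in wild type (17.6 to 629) and 15.5 CPM after deletion (0 to 269), and it fell by 3.29 (SE 0.52, edgeR adjusted p = 7.57e-07), while the SR kinase Srpk2 rose by 1.10 (SE 0.23), from a median of 312 to 677 CPM.

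Other spliceosome proteins gave 33 of 59 called lower and 1 higher, with a median of -1.04. Ppil1, a cyclophilin of the active spliceosome, had a median of 97.6 CPM in wild type (20.5 to 192) and of 0 after deletion, with a highest value of 136 CPM, and it fell by 3.35 (SE 0.67, edgeR adjusted p = 4.34e-05), and Snrnp27 rose by 0.92 (SE 0.28). Of 25 genes for hnRNPs and PTB proteins, which often oppose SR proteins on exons, 11 were called lower and 2 higher, with a median of -0.36. Hnrnph2 fell by 2.62 (SE 0.48) and Rod1, a relative of PTB, rose by 1.89 (SE 0.39), from a median of 40.9 to 223 CPM. These shares can be read against the 26.4% of all genes called lower.

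Anti-SMARCA5 TrimAway gave fewer calls than the deletion. The main fit has no term for the replicate number. It takes in 7 anti-SMARCA5 libraries of replicate 2, for which no IgG library was kept. Against IgG, 1 of 55 genes tested was called, where 3.03% of all 10447 genes were. It was Lsm12, with 29.6 CPM in anti-SMARCA5 libraries (median, range 0 to 118) and 70.2 CPM in IgG libraries (10.3 to 216). It fell by 1.28 (SE 0.34, edgeR adjusted p = 0.0334). Of 31 anti-SMARCA5 libraries, 26 were under the IgG median. Its adjusted p lay between 0.00113 and 0.394 over the alternatives, and without replicate 1 no gene of the 54 tested was called, nor any of all 9402 genes tested. Over all 55 genes the median log2 value was -0.25, against 0.04 over all genes. In these libraries the 18 oocyte and maternal transcripts summed to medians of 4050 CPM in anti-SMARCA5 (2491 to 24596) and 3765 CPM in IgG (2567 to 18453), and the 19 genes of the 2-cell stage to 1458 (58.6 to 4105) and 1606 CPM (154 to 7971). The cumulus and granulosa markers summed to medians of 113 CPM in anti-SMARCA5 (65.0 to 484) and 102 CPM in IgG (41.0 to 187), and the part of all these markers in the result was not tested.

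With the replicate number as a block, more genes passed. There 14 of the 55 were called lower and 1 higher, where 13.6% of all genes were called lower, 12.1% higher and 25.8% in either direction, and the median was -0.45. Markers moved in the same fit: of 17 tested genes of the 2-cell stage, 16 were below 0 and 5 were called lower (median -0.79), and of 15 oocyte and maternal transcripts 3 were called higher and none lower (median 0.61). None of 3 tested cumulus and granulosa markers was called, and the part of these markers in the result was not tested. Lsm12 stood at -1.81 (SE 0.36, edgeR adjusted p = 0.00113). Srsf5 was at -1.22 (SE 0.28, adjusted p = 0.00304), Snrpc at -1.20 (SE 0.33, adjusted p = 0.00924), Srsf1 at -0.85 (SE 0.26, adjusted p = 0.0169) and Lsm2 at -1.04 (SE 0.32, adjusted p = 0.0175), all from edgeR. The adjusted p over the alternatives reached 0.774, 0.387, 0.842 and 0.398 for these 4 genes. Their levels show the overlap behind this. Srsf5 had a median of 97.4 CPM in anti-SMARCA5 libraries (7.43 to 300) and 187 CPM in IgG libraries (8.48 to 335). Snrpc had a median of 138 CPM (0 to 318) against 192 CPM (79.0 to 705). Srsf1 had a median of 240 CPM (36.6 to 1001) against 461 CPM (68.6 to 835).

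The other genes called lower with the block were Snrpd2 (-1.58), Snrpa (-1.24), U2af1 (-1.13), Snrpa1 (-1.11), Snrpd1 (-0.91), Prpf3 (-0.85), Prpf38a (-0.84), Sf3a1 (-0.84) and Sf3b1 (-0.59). The gene called higher was Lsm11 (1.07, SE 0.36, edgeR adjusted p = 0.026), a subunit of the U7 particle that processes histone mRNA. Within replicate 3, where IgG embryos also had Trim21 RNA, Lsm12 (-2.50), Snrpa (-2.34), U2af1 (-2.22), Snrpc (-2.05) and Prpf38a (-1.38) were called lower, and Sf3b3 (1.83), Lsm11 (1.65) and Srsf4 (0.95) higher. Within replicate 1, Lsm12 alone was called, at -1.39 (edgeR adjusted p = 0.0407). The share of all genes called within each of these replicates is not given here, so these calls are not read as particular to this group. Whether the effect differs between these replicates was not tested.

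Against uninjected embryos, which share the anti-SMARCA5 libraries with the comparison above, 13 of 55 genes were called lower and 2 higher. Of all 10750 genes, 10.4% were called lower, 17.5% higher and 27.9% in either direction, and with scaling by total counts alone the split of the 55 was 21 lower and 0 higher, while 1874 of all 10750 genes were called lower and 409 higher. Without replicate 1 no gene of the 55 was called, and 1 of all 10544 genes was. Among the markers, 5 of 15 oocyte and maternal transcripts were called higher and 1 lower (median 0.51), 3 of 17 genes of the 2-cell stage higher (median 0.73) and 1 of 4 cumulus and granulosa markers higher. Their summed levels in uninjected libraries had medians of 3734 CPM (2259 to 4846), 1082 CPM (873 to 2063) and 88.8 CPM (52.2 to 151), and their part in the result was not tested. Snrpd2 had a median of 18.6 CPM in anti-SMARCA5 libraries (0 to 90) and 65.2 CPM in uninjected ones (17.1 to 160), and it fell by 1.57 (SE 0.47, edgeR adjusted p = 0.0126). Lsm12 fell by 1.40 (SE 0.36, edgeR adjusted p = 0.00465) and Lsm2 by 1.23 (SE 0.30, edgeR adjusted p = 0.00333). Snrpf, not called after deletion, fell by 1.20 (SE 0.34, edgeR adjusted p = 0.00871), and 30 of 31 antibody libraries were under the uninjected median.

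The genes called higher there were Lsm11 (1.20, SE 0.39, edgeR adjusted p = 0.0191) and Srsf3 (0.98, SE 0.27, edgeR adjusted p = 0.00856), an SR protein that also serves mRNA export. Srsf3 had a median of 105 CPM in anti-SMARCA5 libraries (37.6 to 680) and 65.4 CPM in uninjected ones (35.4 to 103). The remaining 9 genes called lower were Snrpa1, Snrpd3, Prpf31, Sf3a2, U2af2, Sf3a1, Prpf19, Srsf5 and Prpf4, with values from -1.25 to -0.69. With the replicate block, Snrpb, Snrpa and Prpf3 were called in addition and Snrpd3 was not (edgeR adjusted p = 0.073, range over the alternatives 0.0119 to 0.771). The genes that rose after maternal deletion stood near 0 in this comparison: Lsm6 at 0.12 (SE 0.31), Lsm1 at 0.11 (SE 0.23) and U2af1l4 at 0.00 (SE 0.30). Against IgG they were not called either, at -0.16 (SE 0.29) for Lsm6, 0.39 (SE 0.23, edgeR adjusted p = 0.253) for Lsm1 and 0.74 (SE 0.31, adjusted p = 0.12) for U2af1l4. With the replicate block Lsm1 stood at 0.57 (edgeR adjusted p = 0.0658) and U2af1l4 at 0.81 (adjusted p = 0.0515), the lowest values over their alternatives, which reached 0.785 and 0.42.

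Among the lists of genes that work beside this group, 2 genes were called in anti-SMARCA5 against IgG, where 3.03% of all 10447 genes were. The lists held 62 other spliceosome proteins, 25 hnRNP and PTB genes, 18 assembly and export genes and 15 for SR-related proteins and kinases. Gemin4, of the SMN complex, fell by 1.76 (SE 0.44, edgeR adjusted p = 0.0277), at a low level (average log2 CPM under 4). Rod1 was the other, with a median of 183 CPM (76.0 to 592) against 105 CPM (57 to 382) and a rise of 0.85 (SE 0.25, edgeR adjusted p = 0.0449). Against uninjected embryos, 11 of 62 other spliceosome proteins were called lower and 1 higher, 4 of 17 assembly and export genes lower and none higher, and 3 of 25 hnRNP and PTB genes lower and 6 higher, beside 10.4% lower and 17.5% higher over all genes. Called lower were Ppil1 at -1.91 (SE 0.55), Snupn, an import adaptor of snRNPs, at -1.22 (SE 0.48), and Tnpo3 at -1.02 (SE 0.34). Srpk2 and Rod1 rose by 0.98 (SE 0.24) and 1.20 (SE 0.26).

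Between IgG and uninjected libraries no gene of this group was called. The IgG libraries pool replicate 1, at or under 3 counts of Trim21 RNA, with replicate 3, at a median of 296 CPM. Of 55 genes, 0 were called against uninjected embryos by edgeR, and 5 had an unadjusted p under 0.05, where 0% of 9915 genes were called and 1440 had such a p. DESeq2 also called 0 of the 55, but 179 of all genes higher and 11 lower, and edgeR without the filter on low counts called 0 of 56, with 704 of all 20956 genes higher and 177 lower. The 5 genes were Snrpb (-0.64, SE 0.25), Prpf31 (-0.60, SE 0.27), Snrpg (-0.45, SE 0.19), Snrpc (0.45, SE 0.22) and Snrpe (0.73, SE 0.29), and no adjusted p among them was under 0.226.

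The deletion and the TrimAway comparison with IgG share no libraries. Of the 54 genes tested in both, 13 were called in both with the replicate block for TrimAway, which is 43.3% of the 30 called after deletion and 86.7% of the 15 called after TrimAway, and all 13 had the same sign. They were Lsm12, Lsm2, Snrpd2, Snrpa, Snrpc, Snrpa1, Sf3a1, Sf3b1, U2af1, Prpf3, Prpf38a, Srsf1 and Srsf5. Of all genes tested in each fit, 56.6% were called after deletion and 25.8% after TrimAway with the block. The overlap of calls over all genes is not given here, so that of the 13 is not read as particular to this group. Across the 54 genes the log2 values had a Pearson correlation of 0.729, and across the 8238 genes tested in both it was 0.804. Genes of 1 library share its depth and scaling, so these correlations describe the tables and carry no test.

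**Figure D5:**
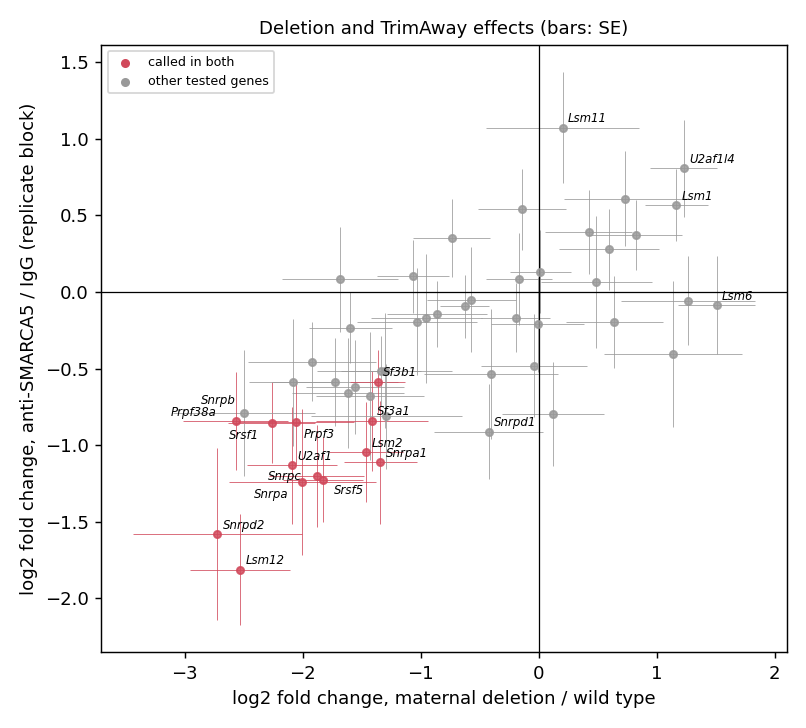
Log2 fold change after maternal deletion (x axis) and in anti-SMARCA5 against IgG with the replicate block (y axis) for 53 of the genes tested in both, with bars of 1 standard error. The 13 genes called in both lie in the lower left, with Snrpd2 and Lsm12 farthest out, and Lsm6 lies at 1.51 on the x axis and close to 0 on the y axis.

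Tested directly, the effects differed in size for 14 of 55 genes (a contrast of the 4 groups in edgeR), where 19.2% of all 12035 genes did. For 13 of them the deletion effect was the lower one, led by Snrpb (difference -2.28, SE 0.71, edgeR adjusted p = 0.016), Prpf38a (-2.09, SE 0.54, adjusted p = 0.00341) and Prpf4b (-2.06, SE 0.57, adjusted p = 0.00692). Lsm6 was the exception, with a difference of 1.62 (SE 0.43, edgeR adjusted p = 0.00455). With the replicate block 8 genes differed, against 11.7% of all genes, and Lsm6, Srsf1, Srsf11, Sf3b1, Prpf38a, Prpf4b and Prpf38b were among them while Snrpb was not (edgeR adjusted p = 0.106, range over the alternatives 0.0182 to 0.106). The eighth was Lsm4.

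After deletion, 3 genes were too low for the test, and 2 of them also in the TrimAway comparisons. Srsf12, a member of the SR family, had 0 counts in all 22 wild-type, 15 uninjected and 20 IgG libraries. Over the summed counts of each group this allows up to 0.0572, 0.1425 and 0.0845 CPM, with 3 counts taken as the limit and counting error alone covered. It had 161 counts in 5 of 28 deletion libraries, up to 101 in 1 library, and 83 counts in 8 of 31 anti-SMARCA5 libraries, up to 26 in 1. Prpf40b, a U1-associated protein, had 99 counts in 6 wild-type libraries and 193 in 13 deletion libraries, and its median was 0 in all 5 groups. Lsm5, of the U6 ring, failed the filter after deletion, with medians of 2.41 CPM in wild type and 4.88 CPM after deletion, and was tested in TrimAway without a call.

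Reads of 24 of the 57 genes could be shared with a near-identical sequence (at least 95% identity over at least 200 bases of another annotated gene), often a processed pseudogene, as for Snrpd2, Srsf3, Snrpg, Lsm12, Lsm6, U2af1 and Snrpc. Their values hold as far as the authors' counting kept such copies apart, which is not given in the sources used here.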

How the data were processed

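Gene counts of 138 wells (135 with embryos) were taken from both tables that the authors deposited. They are raw counts per gene, as whole numbers, per the file headers and values. The submitters' processing notes name Trim Galore 0.6.5, cutadapt 2.3, HISAT2 2.1.0 and GRCm38. How strand and multiply mapped reads were handled is not given in the sources used here. Member counts of 1 and 3 (159 and 140 cases) were more frequent than counts of 2 and 4 (39 and 26), so low counts do not behave as single reads.

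Groups came from the labels. Embryo libraries under 100000 counts (19 of 135, 2 of them with 0 counts) were left out, among them all 6 IgG libraries of replicate 2. Kept libraries had 109007 to 12004992 counts, which sets the precision of low genes, and the limits given for Srsf12 cover counting error only. The members and gene lists were chosen with earlier results of these data known.

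Tests used edgeR 4.0.16 in R 4.3.3 (robust quasi-likelihood, TMM scaling, the default filter on low counts), with Benjamini-Hochberg adjustment over all genes tested and calls at an adjusted p under 0.05. The SE is the absolute log2 fold change over the square root of F. Levels are TMM-scaled CPM over the 116 kept libraries, per kilobase where genes are compared with each other. The procedure was tested on simulated data. The replicate number marks a pool of embryos, per the design text in the labels, so numbers pair the samples. Deviations of same-numbered groups correlated at 0.481 (deletion and wild type), 0.556 (anti-SMARCA5 and IgG), 0.072 (anti-SMARCA5 and uninjected) and 0.402 (IgG and uninjected) over 12845 genes, from 2 shared numbers each. Named in full were, per class, the most abundant gene per kilobase, the 2 largest called changes after deletion and the largest of the other sign (average log2 CPM not under 4), genes called in the interaction, the 5 smallest adjusted p values in anti-SMARCA5 against IgG, and genes not tested. Other genes are given by class, and 1 gene enters the counts and is not reported by name here. Alternatives were the replicate block, DESeq2 1.42.0 size factors and test, scaling by total counts, no filter, other depth minimums, single replicates, leaving out replicates, and leaving out the 3 libraries at odds with their labels.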

Additional observations from a re-analysis of the deposited data

Results flagged for a closer look

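The deletion effect on Lsm2 differed between the replicates by -2.14 on the log2 scale (replicate 2 minus replicate 1), by an interaction test in edgeR. That test called 0.763% of all 8518 genes. For 14 of 55 genes the maternal deletion effect differed from the anti-SMARCA5 effect against IgG, by a test of the difference itself in edgeR. The same test called 19.2% of all 12035 genes. With the replicate block it called 8 of the 55, against 11.7% of all genes. Snrpb, Sf3b5, U2af1, Prpf4, Prpf3 and Sf3b2 were not called with the block. Values without the block are given for 13 of the 14 genes. The deletion effect was lower by these differences: Snrpb -2.28, Prpf38a -2.09, Prpf4b -2.06, Sf3b5 -1.91, Srsf1 -1.91, Prpf4 -1.58, U2af1 -1.55, Srsf11 -1.53, Prpf3 -1.45, Prpf38b -1.27, Sf3b1 -1.24 and Sf3b2 -1.22. For Lsm6 the difference was 1.62.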

How the results depend on the processing

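The number of genes called after maternal deletion was 30 and stayed within 1.5 times under every alternative run, from 21 (replicate 1 alone) to 36 (scaling by total counts, and DESeq2), with 21 to 27 when a replicate was left out. For the 16 genes named in full, 761 of 814 gene and setting pairs kept their direction and side of the threshold, 34 passed it, 18 lost it and 1 turned sign, which was Lsm2 after deletion without replicate 2 (0.24, against -1.80 without replicate 1). Snrpa1, outside these 16, turned sign as well (0.07). For anti-SMARCA5 against IgG the count was 1. It was 15 with the replicate block, 0 with scaling by total counts, 4 with the DESeq2 test, 4 with no filter, 3 with libraries of at least 1000 counts, 8 within replicate 3, and 0 to 2 without a replicate. Of all genes, 3.03% were called against IgG in the main fit and 25.8% with the block. In the main fits 56.6% of all genes were called after deletion and 27.9% against uninjected. For most alternatives the share of all genes is not given here, so these counts are not read as particular to this group. Against uninjected embryos the number of genes called was 15, with 17 under the replicate block, 8 within replicate 1 and 0 to 13 without a replicate, where 0 was without replicate 1. IgG against uninjected gave 0 in every fit. The interaction with replicate gave 1, 0 with at least 500000 counts and 4 without the 3 libraries at odds with their labels. The difference between deletion and TrimAway gave 14, and 8 with the replicate block. With the block, all 30 deletion calls remained and 34 genes were called. The cause of these shifts was not tested. Scaling by total counts moved the median log2 value of all genes from 0.18 to -0.04 after deletion, from 0.04 to -0.10 against IgG and from 0.13 to -0.29 against uninjected. Low counts limit Lsm5, Prpf40b and Srsf12, and with 2 shared pools per comparison the spread between pools is barely sampled.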
